A study of Mus musculus with 32 samples.

Results

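The hippocampal transcriptomes of FVB/NJ and SJL/J, inbred mouse strains that both trace back to Swiss mice, were compared on 8 of the 32 arrays of a survey of 8 inbred strains. Members were taken by sample title: 4 arrays carry FVBNJ and 4 carry SJLJ. Each strain was represented by RNA of 1 pool of 6 untreated mice, from which 1 cDNA was made. From that cDNA labelled cRNA was synthesised in 2 rounds (preparations), each read on 2 Affymetrix U74Av2 arrays, a mouse array that reads a transcript with a set of short probes (a probe set). Preparation 1 is on arrays 1 and 2 and preparation 2 on arrays 3 and 4. The mice carried no transgene or induced mutation per the labels, and the sources used here state neither their age nor their sex. The 6 other strains were DBA/2J, C57BL/6J, C3H/HeJ, BALB/cByJ, A/J and the one whose arrays are titled hippocampus_129S1SvImJ. They were untreated, pooled and hybridised in the same way and served as the frame for the levels. With 1 pool a strain every replicate is technical, so p-values measure the spread between preparations and arrays and not the spread between animals, and a strain difference here is a difference between those pools. Because the RNA came from whole tissue, fewer cells of a type and less RNA per cell cannot be told apart.

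Inbred strains are lines in which brother and sister matings have made each mouse nearly identical to the next. Strain differences in signal thus mark inherited differences together with any difference between the pools. Whether strain variants in the sequence read by the probes alter a signal, apart from transcript level, was not tested. FVB/NJ is a strain much used for making transgenic mice, and SJL/J is known for its susceptibility to experimental autoimmune encephalomyelitis and for the aggression of its males. The hippocampus, a forebrain structure built of pyramidal and granule neurons with their interneurons and glia, serves spatial and episodic memory. Both strains carry the retinal degeneration allele of Pde6b, and albinism comes from the pigment enzyme gene Tyr. The probe sets of Tyr and Pde6b, and that of the complement gene Hc, were too dim to be tested.

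Array 1 of FVB/NJ stood apart from the other arrays of its strain. Over the tested probe sets it correlated at 0.905 to 0.910 with arrays 2, 3 and 4 of FVB/NJ, which correlated at 0.971 to 0.974 with each other, and at 0.914 to 0.931 with the SJL/J arrays. Its control probe sets for the sense strand averaged 7.39 on the log2 scale, against 5.09 to 5.62 on the other FVB/NJ arrays, while SJL/J arrays 1 and 2 read 6.95 and 7.27 and arrays 3 and 4 read 5.27 and 5.49. Array 2 of FVB/NJ, of the first preparation per the series design, therefore sat with the second preparation on this measure. The title days, whose step is not stated, were shared by both strains for 3 pairs of arrays: array 1 with array 1, array 2 of FVB/NJ with array 3 of SJL/J, and array 3 of FVB/NJ with array 4 of SJL/J. Results are therefore given with and without array 1 of FVB/NJ and, in the closing section, with FVB/NJ arrays regrouped by day. Median signals ran from 33.4 to 41.7 over the 8 arrays. All 15 hippocampal neuron markers present on the array were bright enough to be tested, and their summed signal of 13434 to 17002 in FVB/NJ overlapped that of 14104 to 18373 in SJL/J.

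Few probe sets were called. With the 2 arrays of a preparation averaged and limma's moderated test fitted over the preparations of all 8 strains, 25 of 7453 tested probe sets (0.335%) passed a Benjamini-Hochberg adjusted p under 0.05, which is what "called" means throughout. Of these, 10 (0.134%) were higher in FVB/NJ and 15 (0.201%) were higher in SJL/J. A difference of at least 2-fold, or 1 on the log2 scale, was reached by 21 of them (0.282% of the tested probe sets), 10 higher in FVB/NJ and 11 higher in SJL/J. The called probe sets stand for 23 genes, with 2 probe sets that have no single gene symbol here. An unadjusted p under 0.05 was reached by 265 probe sets (3.56%). Over all tested probe sets the median difference was 0.01 on the log2 scale and the median absolute difference was 0.17.

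For every one of the 25 the 4 arrays of one strain lay outside the range of the 4 arrays of the other. The test selects for such a separation, which was seen for 5.15% of all tested probe sets. Taking the preparation number as a block, since the design says that the number marks a preparation and preparations of the same number deviated together, raised the count to 64 probe sets (0.859%), 32 in each direction, with all 25 among them.

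**Figure D1:**
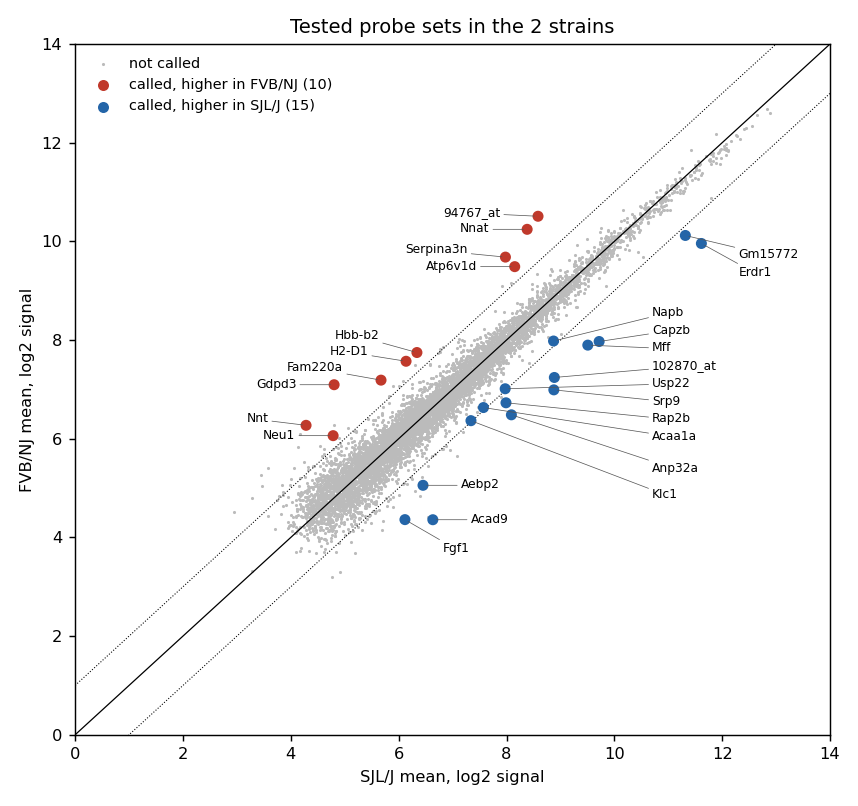
Mean log2 signal of each of the 7453 tested probe sets in SJL/J (horizontal) and FVB/NJ (vertical), over 4 arrays each, with the line of equal signal and dotted lines at a 2-fold difference. Red points are the 10 called probe sets higher in FVB/NJ and blue points the 15 higher in SJL/J, most of them beyond the dotted lines and spread over dim and bright signals.

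The 3 largest called differences were those of Gdpd3, Acad9 and Nnt, enzymes of lipid and mitochondrial metabolism, and they ran in both directions. Acad9, an acyl-CoA dehydrogenase that also helps to assemble respiratory complex I, was lower in FVB/NJ. Its probe set (160303_at) read 4.06, 4.71, 4.14 and 4.52 on FVB/NJ arrays 1 to 4 and 6.56, 6.34, 6.85 and 6.78 on SJL/J arrays 1 to 4, in log2 signal. The highest FVB/NJ array was thus well below the lowest SJL/J array. The difference of -2.28 ± 0.28 (SE, n = 2 preparations a strain) is 4.84-fold, with an adjusted p of 0.000837 by limma. The 6 other strains had means of 5.93 to 6.53, so that FVB/NJ was the lowest and SJL/J the highest of the 8. The mean FVB/NJ signal of 20.5 is below the average of 21.3 that a probe set needed to be tested.

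Nnt, the nicotinamide nucleotide transhydrogenase that supplies NADPH in mitochondria, differed the other way. FVB/NJ arrays 1 to 4 read 6.16, 6.30, 6.22 and 6.41 and SJL/J arrays 1 to 4 read 3.96, 5.21, 3.60 and 4.36. The FVB/NJ arrays were tightly grouped, whereas those of SJL/J, at a mean signal of only 19.5, were spread over more than 1 log2 unit. Nnt was 3.97-fold higher in FVB/NJ (1.99 ± 0.30, adjusted p = 0.00492), with FVB/NJ above and SJL/J below the range of 5.16 to 6.10 in the other strains. Without array 1 of SJL/J the call was lost (1.68, adjusted p = 0.117).

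Mff, the receptor that recruits the fission protein Drp1 to mitochondria, read 7.43, 8.21, 7.94 and 8.01 on the FVB/NJ arrays and 9.58, 9.70, 9.28 and 9.46 on the SJL/J arrays. All FVB/NJ arrays were below all SJL/J arrays, by 3.05-fold in the mean (-1.61 ± 0.19, adjusted p = 0.000575), and array 1 was the lowest of FVB/NJ. The peroxisomal thiolase Acaa1a was lower in FVB/NJ by less than 2-fold (-0.94 ± 0.18, adjusted p = 0.0484). That call rested on single arrays: it was lost without array 1, 2 or 4 of FVB/NJ or array 1 or 4 of SJL/J, at adjusted p from 0.055 to 0.233.

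Gdpd3, a lysophospholipase D of the glycerophosphodiester phosphodiesterase family, had the largest difference of all called genes. Its log2 signals were 6.89, 7.11, 7.20 and 7.18 in FVB/NJ and 4.18, 5.29, 5.27 and 4.48 in SJL/J. The lowest FVB/NJ array was above the highest SJL/J array, and the mean was 4.90-fold higher in FVB/NJ (2.29 ± 0.28, adjusted p = 0.000837). FVB/NJ and the strain titled hippocampus_129S1SvImJ (6.86) shared the high level, and the other 5 strains lay between 4.14 and 5.58 with SJL/J among these low levels. Gdpd3 was called under every setting in which it was tested.

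Srp9, Atp6v1d, Neu1 and Napb are described together only because their proteins work in secretion, vesicles or lysosomes, and they differed in both directions. No list of secretory or lysosomal genes was examined, and a list of synaptic vesicle genes is given below. Srp9, a subunit of the signal recognition particle that brings new secretory proteins to the endoplasmic reticulum, was 3.70-fold lower in FVB/NJ (-1.89 ± 0.17, adjusted p = 6.21e-05). Its arrays read 6.84, 7.12, 6.98 and 7.02 in FVB/NJ and 8.95, 8.71, 8.80 and 9.04 in SJL/J. The strains fell into 2 levels: DBA/2J (6.97) and A/J (7.12) were as low as FVB/NJ, and the other 4 strains, from 8.56 to 9.21, were at the level of SJL/J.

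Atp6v1d, a subunit of the proton pump that acidifies lysosomes and synaptic vesicles, was higher in FVB/NJ. It read 9.34, 9.60, 9.51 and 9.50 in FVB/NJ and 8.13, 7.91, 8.43 and 8.14 in SJL/J, a 2.52-fold difference (1.34 ± 0.15, adjusted p = 0.000415). Apart from SJL/J, BALB/cByJ was low as well, at 7.78. Neu1, the lysosomal sialidase that trims sialic acids from glycoconjugates, read 5.92, 6.22, 5.97 and 6.15 against 4.22, 5.15, 4.94 and 4.83. It was 2.42-fold higher in FVB/NJ (1.28 ± 0.25, adjusted p = 0.0484), with SJL/J below the range of the other strains, but the call was lost without array 2 or 4 of FVB/NJ or array 1 or 4 of SJL/J (adjusted p from 0.0677 to 0.245). Napb, the beta form of the NSF attachment protein that recycles SNARE complexes after vesicle fusion, was lower in FVB/NJ on 1 probe set (-0.89 ± 0.15, adjusted p = 0.0123, or 0.0505 without array 4 of SJL/J). On its other, brighter probe set Napb differed by -0.20 with overlapping arrays.

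Among signalling genes, Fgf1, a fibroblast growth factor made by neurons, was lower in FVB/NJ. Its arrays read 4.40, 4.06, 4.83 and 4.15 in FVB/NJ and 6.07, 5.89, 6.22 and 6.28 in SJL/J, a 3.38-fold difference (-1.76 ± 0.26, adjusted p = 0.00465). SJL/J was within the narrow range of 6.0 to 6.39 of the other 6 strains, and FVB/NJ was below it. The mean FVB/NJ signal of Fgf1 was 20.5, below the average of 21.3 that a probe set needed to be tested. Its call was lost in 5 of 28 settings, among them the 2 strains alone and an offset of 64. Rap2b, a small GTPase of the Ras family, was 2.40-fold lower in FVB/NJ on its brighter probe set (-1.26 ± 0.22, adjusted p = 0.0199; 0.055 without array 2 of FVB/NJ) and differed by -0.01 on the other.

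Capzb, the beta subunit of the protein that caps actin filaments, read 7.70, 8.13, 8.27 and 7.79 in FVB/NJ and 9.95, 9.88, 9.46 and 9.59 in SJL/J on its brightest probe set (95142_s_at). The groups were clearly apart, by 3.36-fold (-1.75 ± 0.19, adjusted p = 0.000415), and FVB/NJ was below the 9.08 to 10.07 of the other strains. A further tested probe set of Capzb gave -0.61 (adjusted p = 0.432, or 0.0476 with the preparation block), also lower in FVB/NJ. Klc1, a light chain of the kinesin motor that carries cargo along axons, was lower in FVB/NJ by 1.97-fold on 1 of 3 probe sets (-0.98 ± 0.19, adjusted p = 0.039). The others gave -0.62 and, on the brightest of the 3, 0.15. Without array 2 of FVB/NJ or array 1 or 4 of SJL/J the call of Klc1 was lost (adjusted p from 0.0505 to 0.379).

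Anp32a, Aebp2 and Usp22, whose proteins act in the nucleus, were lower in FVB/NJ. Anp32a, an acidic phosphoprotein that binds histones and inhibits phosphatase 2A, read 6.30, 6.69, 6.80 and 6.16 in FVB/NJ and 7.98, 8.11, 7.98 and 8.29 in SJL/J on probe set 93372_at (-1.61 ± 0.23, 3.04-fold, adjusted p = 0.00333). SJL/J was the highest and FVB/NJ the lowest of the 8 strains there, while the other, brighter probe set of Anp32a gave a mean of 9.17 in both strains. Aebp2, a zinc finger partner of the Polycomb complex that methylates histone H3, had its lowest mean in FVB/NJ, at 5.06, and the other 7 strains ranged from 6.36 to 6.81 (SJL/J 6.45). The difference of -1.40 ± 0.26 had an adjusted p of 0.0325, which became 0.131 without array 2 and 0.0703 without array 4 of SJL/J. Usp22, the deubiquitinase of the SAGA coactivator complex, differed by -0.96 ± 0.17 (adjusted p = 0.0183), with array 1 the lowest of FVB/NJ at 6.52 and arrays 2 to 4 at 7.03 to 7.37; without that array the adjusted p was 0.139.

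Nnat, which encodes neuronatin, a paternally expressed membrane protein of neurons, was lower in SJL/J. It read 10.56, 9.89, 10.13 and 10.39 in FVB/NJ and 8.77, 8.73, 7.98 and 8.06 in SJL/J. The strains were more than 1 log2 unit apart on every array, and the means differed 3.63-fold (1.86 ± 0.31, adjusted p = 0.0124). The call was lost under median centring (adjusted p = 0.0934), without the variance trend (0.062) and without either preparation of FVB/NJ or preparation 2 of SJL/J (0.141 to 0.191). The other strains ranged from 9.83 to 10.80, a range that includes FVB/NJ. It was the only called gene among 20 tested imprinted genes, whose median difference was 0.02.

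Serpina3n, a serine protease inhibitor made by reactive astrocytes, gave the tightest arrays of the called genes in FVB/NJ. They read 9.68, 9.65, 9.73 and 9.66, against 7.77, 7.95, 8.21 and 7.99 in SJL/J, and the difference of 1.70 ± 0.17 (3.25-fold, adjusted p = 0.000164) was called under all settings run. The SJL/J mean of 7.98 was level with those of C3H/HeJ (7.99) and A/J (8.02), the lowest of the 8 strains, and the strain titled hippocampus_129S1SvImJ the highest at 9.96. Of the 14 tested astrocyte markers, 0 were called by limma and 2 had an unadjusted p under 0.05, with a median difference of 0.01 and summed signals of 12653 to 14410 in FVB/NJ and 11885 to 15069 in SJL/J.

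H2-D1, a class I histocompatibility heavy chain that presents peptides, was higher in FVB/NJ on 1 of 2 tested probe sets. Probe set 101886_f_at read 8.02, 7.11, 7.53 and 7.62 in FVB/NJ and 6.18, 5.91, 6.28 and 6.18 in SJL/J (1.43 ± 0.21, 2.70-fold, adjusted p = 0.00465). Without array 1, the highest of FVB/NJ, the difference was 1.21 (adjusted p = 0.036 by limma). The groups did not overlap, with FVB/NJ above and SJL/J below all other strains, but probe set 97540_f_at gave 0.21 with overlapping arrays. Both carry a suffix that marks probes able to read more than 1 transcript of a family. On the brightest probe set of each gene, none of the 16 tested histocompatibility and antigen presentation genes was called by limma or had an unadjusted p under 0.05, and their median difference was 0.09. Of the 16, 9 were higher and 7 lower in FVB/NJ. The largest absolute differences were those of H2-Eb1 (-0.42) and H2-Ke6 (-0.41), lower in FVB/NJ. The invariant chain Cd74 differed by 0.32 and the shared light chain B2m by 0.24, and none of these passed the test.

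Hbb-b2, a beta globin chain of red blood cells, read 7.50, 7.86, 7.88 and 7.74 in FVB/NJ and 6.02, 6.10, 6.80 and 6.44 in SJL/J. It was 2.65-fold higher in FVB/NJ (1.41 ± 0.22, adjusted p = 0.0062). C57BL/6J (6.23) and BALB/cByJ (6.44) had means near that of SJL/J (6.34), and C3H/HeJ (7.92) was near FVB/NJ (7.75). The alpha globin Hba-a1 differed by only 0.27 ± 0.16 and was not called, and the summed signal of the 4 tested erythroid transcripts, Hbb-b2 included, was 2090 to 2243 in FVB/NJ and 1816 to 1906 in SJL/J. The part of red blood cell RNA in these differences was not tested.

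Among the remaining called probe sets, Erdr1, listed in RefSeq as a transcribed pseudogene, was 3.15-fold lower in FVB/NJ (-1.66 ± 0.14, adjusted p = 5.14e-05). It read 10.06, 9.95, 10.01 and 9.80 in FVB/NJ and 11.64, 11.80, 11.47 and 11.54 in SJL/J, and its other, dimmer probe set gave -0.76 without passing. The other strains spanned 8.79 to 11.76 on the called probe set, so the difference between FVB/NJ and SJL/J lay inside their range. Gm15772, another transcribed pseudogene, was also lower in FVB/NJ (-1.20 ± 0.15), and Fam220a, a gene of little known function, was higher (1.51 ± 0.22; adjusted p = 0.00465, or 0.0847 without array 2 of SJL/J). The other tested probe set of Fam220a gave 0.65 with overlapping arrays and was not called. Of the pair without a single symbol, probe set 102870_at, which lists 2 genes, was 3.13-fold lower in FVB/NJ, and 94767_at, unnamed here, was 3.79-fold higher.

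**Figure D2:**
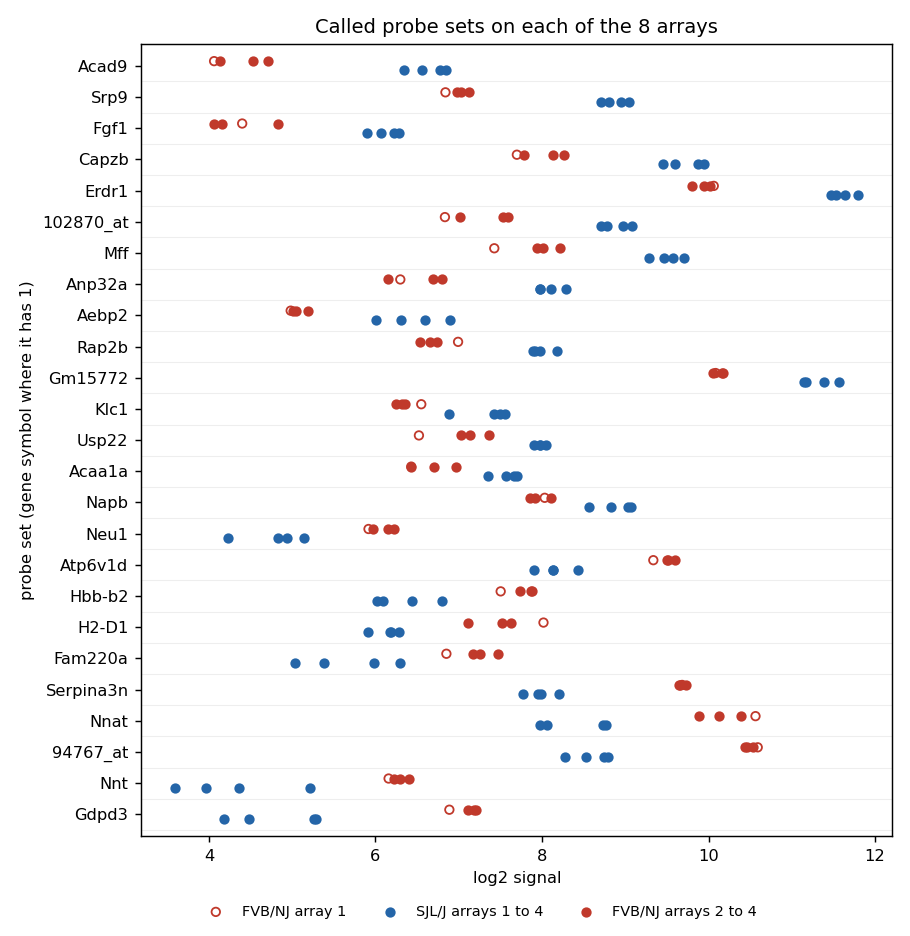
Log2 signal (horizontal) of the 25 called probe sets on each FVB/NJ array (red, with array 1 as an open circle) and each SJL/J array (blue), ordered from lowest to highest difference. In no line do the red and blue points overlap. Array 1 is the FVB/NJ array farthest from SJL/J in several lines, among them Mff (7.43), Usp22 (6.52) and H2-D1 (8.02).

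Several genes were read by more than 1 probe set. Of the 23 called genes, 15 had 1 tested probe set and 8 had further ones, 9 in number. None of the 9 was called by limma, 2 had an unadjusted p under 0.05, 1 was called with the preparation block (Capzb), and 7 had the sign of the called probe set, with absolute differences from 0.01 to 0.76. Of the called probe sets, 6 carried a suffix marking that the probes can read several transcripts. Differences of Anp32a, Rap2b, Klc1, Napb and H2-D1 therefore hold for the probe set named and not for the gene as a whole.

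The other 6 strains gave a frame for the called levels, though for 12 of the 25 probe sets they did not single out 1 strain of the pair. In 8 of the 25 called probe sets FVB/NJ alone lay outside the range of the other 6 strain means, and in 7 of those it was the lower strain. SJL/J alone lay outside in 5, each time as the lower strain: Nnat, Neu1, Serpina3n, Fam220a and 94767_at. The margin was slight for Fam220a, at 5.67 in SJL/J and 5.73 in the strain titled hippocampus_129S1SvImJ. It was slight too for Serpina3n, at 7.98 in SJL/J and 7.99 in C3H/HeJ. Both strains of the pair were outside in 6 (Acad9, Mff, Anp32a, Usp22, Nnt and H2-D1), on opposite sides of the other strains. For Mff and Usp22 SJL/J was outside by little: it was at 9.51 and 7.98, and the highest other means were 9.49 and 7.96. Both strains of the pair were inside in 6, among them Srp9, Erdr1, Hbb-b2 and Atp6v1d, where other strains showed both levels. Over all tested probe sets the shares were 16.9% for FVB/NJ alone, 11.9% for SJL/J alone, 6.78% for both and 64.4% for neither, so being outside is common without a call. FVB/NJ was the one nearer to the median of the other strains for 12 of the 25 and SJL/J for 13.

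**Figure D3:**
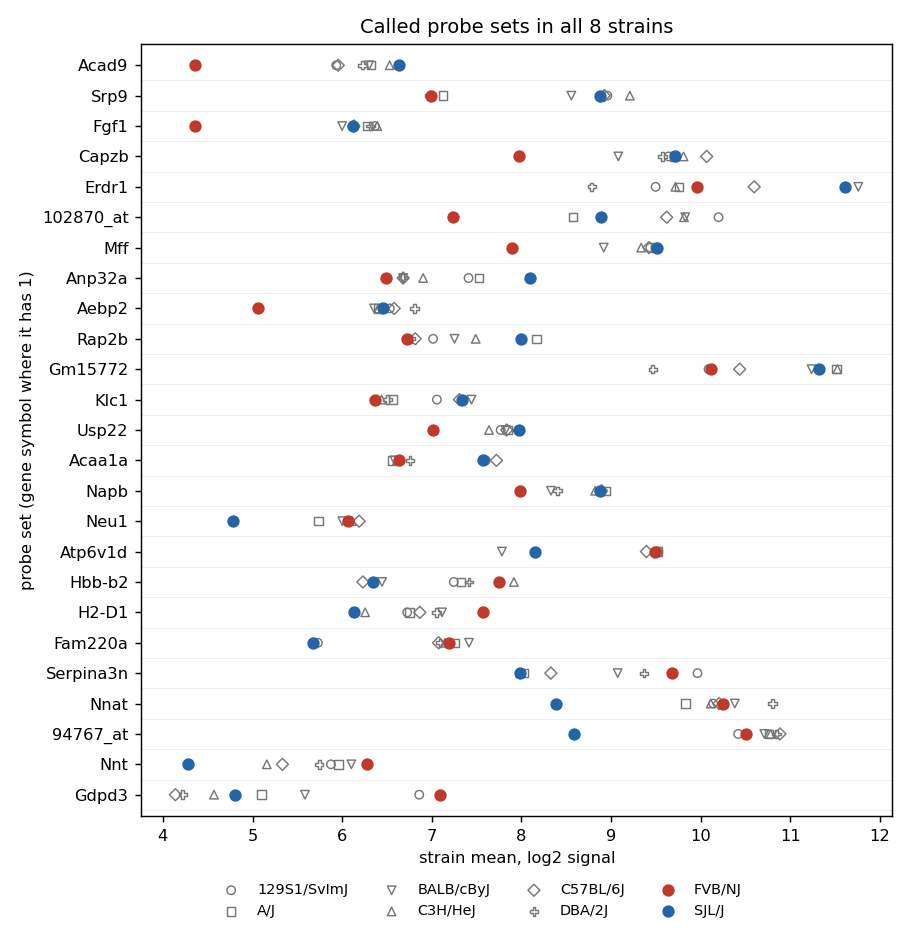
Strain means in log2 signal (horizontal) of the 25 called probe sets in FVB/NJ (red), SJL/J (blue) and the 6 other strains (open grey symbols), ordered as by difference. Fgf1 and Aebp2 show FVB/NJ apart from all other strains, Nnat and 94767_at show SJL/J apart, and Srp9 shows 2 levels shared by several strains.

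Repeating the fit without array 1 of FVB/NJ called 24 probe sets, 11 higher and 13 lower in FVB/NJ. Of these, 23 were among the 25. Acaa1a (-0.87, adjusted p = 0.0799) and Usp22 (-0.75, adjusted p = 0.139) were lost. Skp1, the adaptor of SCF ubiquitin ligases, was gained, at 1.38 with an adjusted p of 0.0284 against 1.19 and 0.0777 with all arrays. All 25 kept their direction, and the largest move of a called difference was 0.23 on the log2 scale. Leaving out any other single array cost the call of at least 1 gene only for arrays 2 and 4 of FVB/NJ and arrays 1, 2 and 4 of SJL/J, and over all 8 single arrays 9 genes lost their call at least once while 16 probe sets never did.

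**Figure D4:**
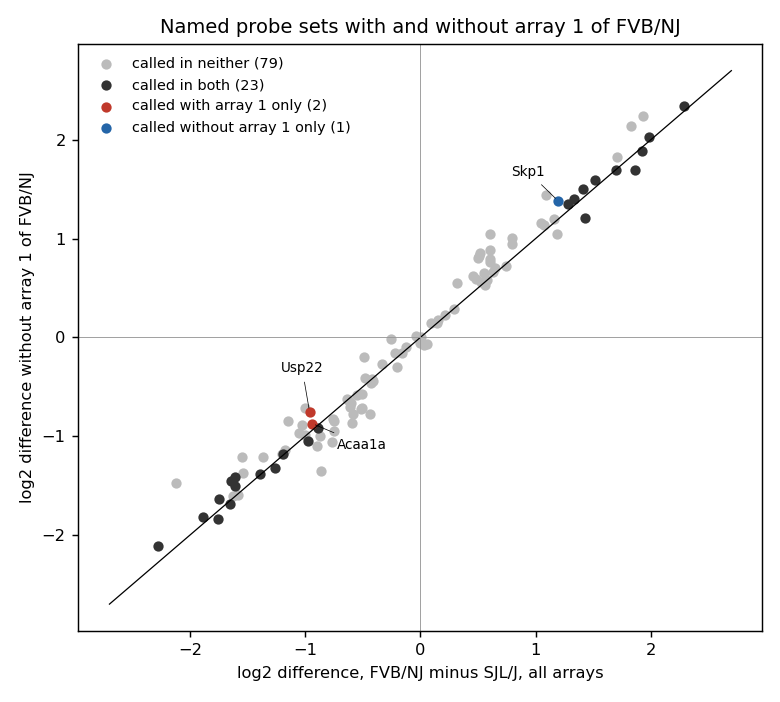
Log2 difference (FVB/NJ minus SJL/J) of 105 probe sets of named genes with all arrays (horizontal) and without array 1 of FVB/NJ (vertical), with the line of equal difference. The 23 called in both fits lie along the line, Usp22 moved from -0.96 to -0.75, and Skp1 moved from 1.19 to 1.38.

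With preparation as a block, 38 probe sets were called at 2-fold or more, of which 17 were not called without it, 15 of them with 1 gene symbol. Array 1 of FVB/NJ bore on these: without it, a setting added after the data were seen, 6 of the 15 lost their call in the blocked fit and 9 kept it. Ntrk2, which encodes the BDNF receptor TrkB, had the largest of the differences (-2.13 ± 0.59; adjusted p = 0.434, or 0.0383 with the block). Its FVB/NJ arrays read 2.70, 5.30, 4.90 and 4.76 and its SJL/J arrays 6.62, 6.44, 6.50 and 6.60. Array 1 of FVB/NJ was far below the other FVB/NJ arrays, and without it the difference fell from 4.36-fold to 2.78-fold (-1.48; adjusted p = 0.76, or 0.191 with the block), although the groups still did not overlap.

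The other 5 that lost their call without array 1 were Rnf13, Lmbr1l, the mitochondrial thiolase Acaa2, the transcription factor Stat5a and the long noncoding RNA Snhg11. Acaa2 differed by -1.05 with an adjusted p of 0.0388 with the block, and by -0.97 with 0.0563 without that array. Rnf13 (-1.55) and Lmbr1l (-1.54) were called with the block on 1 probe set each, while their further probe sets, that of Rnf13 being the brighter one, gave 0.15 and 0.10.

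Cnpy2 was lower in FVB/NJ with the block (-1.18, adjusted p = 0.00643) and kept its call without array 1. Higher in FVB/NJ with the block, also without that array, were Cfl2, an actin-severing cofilin (1.94, adjusted p = 0.00145 with the block and 0.303 without), and Tfb2m, a mitochondrial transcription factor (1.83, 0.0241 and 0.608). The ubiquitin ligase receptor Dcaf11 (1.71, 0.0241 with the block and 0.284 without) and the neuronal calcium sensor Ncs1 (1.16, 0.0302 and 0.127) also kept their calls without array 1. In SJL/J the mean signals of Cfl2, Tfb2m and Dcaf11 were only 17.9, 10.9 and 17.5. These are below the average of 21.3 that a probe set needed to be tested. Ncs1 had tight arrays in both strains, at 6.98, 7.11, 6.99 and 7.17 in FVB/NJ and 5.97, 5.76, 6.03 and 5.85 in SJL/J, with no overlap. Skp1, Epha7, Dsp and Pspc1 were the further named genes of this kind, and 2 probe sets without a single symbol made up the 17. The arrays of Rnf13, Stat5a, Dsp, Pspc1 and the 2 unnamed probe sets overlapped between the strains.

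Pathway and cell type lists were read on the brightest tested probe set of each gene, which gives 5660 genes, 19 called (0.336%), 44 called with the block (0.777%) and a median difference of 0.01. Lipid metabolism held 2 called genes of 40, Acad9 and Acaa1a, and 3 with the block, with Acaa2 (a call lost without array 1 of FVB/NJ); all were lower in FVB/NJ, although 22 of the 40 were higher and the median was 0.01. Of 65 respiratory chain subunits and assembly factors, only Acad9 was called (median -0.02). Of 38 mitochondrial redox and antioxidant genes, only Nnt was called (median 0.01). The plasticity list had 1 call of 38, Fgf1, and a second with the block, Ntrk2, likewise lost without that array. The ubiquitin ligase list had 0 of 46 by limma (3 at an unadjusted p under 0.05), and 2 with the block, Skp1 and Dcaf11.

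None of the 38 tested ion channel genes was called with or without the block, and none had an unadjusted p under 0.05. Even so 29 of the 38 were lower in FVB/NJ, with a median of -0.13, against 48.1% of all genes lower. The calcium channel subunit genes Cacna1a (-0.60) and Cacna2d1 (-0.37) and the potassium channel gene Kcna2 (-0.43) were among them. The other 9 were higher in FVB/NJ, with Kcnj11 at 0.52. The summed signal of the list was 6865 to 7129 in FVB/NJ and 7133 to 7806 in SJL/J, ranges that nearly met. The summed signal of 10 GABA genes, none called by limma and none with an unadjusted p under 0.05, was 3691 to 4120 in FVB/NJ against 4149 to 4511 in SJL/J, but their median was only -0.06 and 3 of the 10 were higher in FVB/NJ, Gabrg1 by 0.60, while the 11 glutamate receptor genes (0 called, 1 with an unadjusted p under 0.05) had a median of -0.18 and overlapping sums. No member of the lists of hippocampal neurons (0 of 15), neighbouring brain regions (0 of 10), oligodendrocytes (0 of 10), microglia (0 of 13), choroid plexus (0 of 13) and vascular cells (0 of 8) was called by limma with or without the block, and 4, 2, 1, 1, 2 and 1 of them had an unadjusted p under 0.05, against 3.29% of all tested genes. The 4 neuron markers went both ways, with Nrgn at 0.56 and Lmo4 at 0.34 and with Zbtb20 at -0.48 and Crym at -0.30, and their arrays did not overlap between the strains, as for 5.11% of all genes. The summed signal of the microglia genes was higher in FVB/NJ, at 1768 to 1805 against 1602 to 1714 in SJL/J, without overlap. Yet 7 of these 13 genes were lower in FVB/NJ, and their median was -0.03. Markers of neighbouring regions had a median of -0.30, with sums of 1102 to 1278 in FVB/NJ and 1243 to 1517 in SJL/J. The part of neighbouring regions in the gene differences was not tested. Synaptic vesicle genes (0 of 37), immediate early genes (0 of 19), interferon-inducible genes (0 of 7), G protein and RGS genes (0 of 28), monoamine and peptide signalling genes (0 of 32) and chaperones (0 of 49) also held no call, with 0, 0, 0, 0, 3 and 2 genes at an unadjusted p under 0.05. Of the 44 tested probe sets of synaptic vesicle genes, 1 was called, on a gene whose brightest probe set was not.

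None of the nearest tested genes on either side of the called ones was called. Of 43 nearest tested genes on either side of the 23 called genes in the RefSeq gene table, 0 were called by limma with or without the block, and 4 (9.30%) had an unadjusted p under 0.05, against 3.29% of all tested genes. These were Acaa1b beside Acaa1a (-1.20), a close relative lower in the same strain, Mccc1 beside Acad9 (-1.04), also lower in the same strain, Anxa5 on the other side of Acad9 (0.38) and Dicer1 beside Serpina3n (-1.0). The median absolute difference of the 43 was 0.13. Neighbours were not always adjacent: 4 protein-coding genes lay between Acaa1a and Acaa1b, and 13 between Serpina3n and Serpina1e. The nearest called pair on 1 chromosome, H2-D1 and Neu1, had 33 protein-coding genes between them, and Klc1 and Serpina3n had 63. The retroviral restriction gene Fv1, a gene with known variant alleles, differed by -1.15 (adjusted p = 0.729) and was not called.

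Set beside the other strain pairs, FVB/NJ and SJL/J had the fewest calls. The same test called 34 to 563 probe sets in the other 27 pairs, with a median of 100, and with the block 73 to 1995 against 64 here. The typical size of a difference was not the smallest: the median absolute difference of 0.17 was number 8 from the smallest of 28 pairs, which ranged from 0.15 to 0.37. These counts share strains and one estimate of spread, and no test was made of the difference between pairs.

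**Figure D5:**
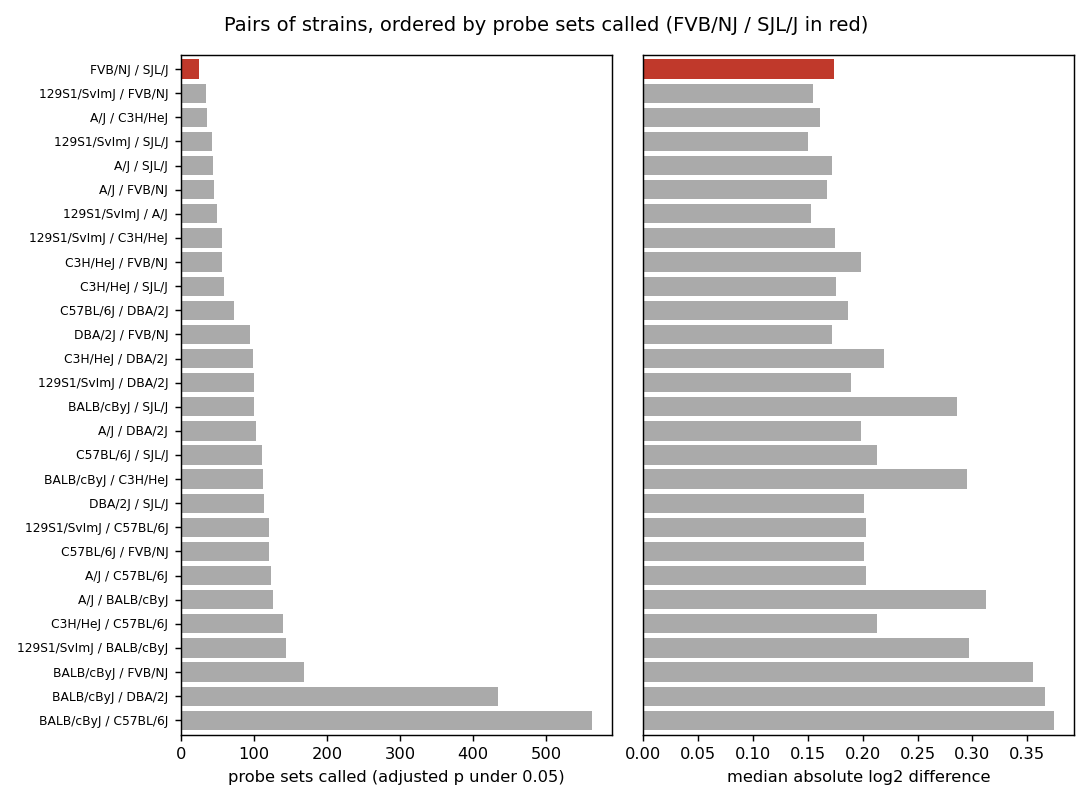
Number of called probe sets (left) and median absolute log2 difference over all tested probe sets (right) for each of the 28 pairs of strains, in the order of the number called. The pair of FVB/NJ and SJL/J, in red, has the fewest calls, 25, but not the smallest median difference.

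FVB/NJ and SJL/J were also averaged and tested together against the remaining 6 strains, a comparison added after the data were seen. It called 75 probe sets (1.01%), or 195 with the block, with 35 of the 75 higher and 40 lower in the pair. A call here does not mean a shared level: 10 of the 75, those of Fgf1, Mff, Nnat and Gdpd3 among them, were also called between FVB/NJ and SJL/J. In 27 of the 75 both strains lay outside the range of all 6 others on the same side, a pattern that this contrast selects for. Over all tested probe sets both lay outside, on the same or opposite sides, in 6.78%. None of these 27 was called between the pair. Only 0.335% of all tested probe sets were, so the lack of a call says little about a shared level. Nckap1, a subunit of the complex that drives actin branching, was lower (-0.58 ± 0.08, adjusted p = 0.00123), at 10.40 and 10.49 against 10.89 to 11.16. Cd47, the integrin-associated signal that protects cells from phagocytosis, was higher on 1 of 2 probe sets (0.74 ± 0.09, adjusted p = 0.000412), with means of 9.72 and 9.76 against 8.52 to 9.61, and differed by 0.09 on the other. The peroxisomal transporter Abcd3 was lower (-1.02 ± 0.11), at 6.98 and 7.03, but the strain titled hippocampus_129S1SvImJ was at 7.04, and the other 5 ranged from 7.48 to 8.68. These 3 genes were chosen after their values were seen. The same contrast for each of the 28 possible pairs gave 35 to 321 calls with a median of 71, and 13 pairs had more than this one.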

How the data were processed

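Members and gene lists were chosen with earlier results of these data known. Pooled hippocampal RNA of 129S1/SvImJ, DBA/2J, C57BL/6J, C3H/HeJ, BALB/cByJ, A/J, FVB/NJ and SJL/J was measured. Each deposited value is a linear intensity (signal) of a probe set on an array, which the authors computed with MAS5 per the submitters' processing notes; its version and scaling target are not stated there. Of 12488 probe sets 66 controls were dropped. Signals were floored at 1 (2.14% of values) before log2. Testing was limited to the brightest 60% by mean over all 32 arrays, 7453 probe sets. The 2 arrays of a preparation were averaged, and a model of 8 strain means was fitted over 16 values with limma 3.58.1 in R 4.3.3 (lmFit, eBayes with trend, 8 residual degrees of freedom), with Benjamini-Hochberg adjustment over all tested probe sets. Differences are FVB/NJ minus SJL/J.

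The pairing of preparations came from the series design, and deviations of equally numbered preparations correlated in all 28 pairs of strains (0.109 to 0.557; 0.357 for FVB/NJ and SJL/J). On simulated data of 7453 probe sets for this contrast the fit recovered 40% of 100 probe sets changed by 1 on the log2 scale. It recovered 88% of 100 changed by 2, with 8 false calls. The simulated preparations varied independently of each other, unlike the correlated ones here. Named genes were all called genes with 1 symbol, up to 10 further genes in each direction called with the block at 2-fold, the 2 members of each list with the largest difference, the variant-allele genes, genes that set either strain apart earlier, their further probe sets and the neighbours of called genes. Symbols came from the platform annotation, with 6743 of the tested probe sets having 1 symbol, for 5660 genes, and neighbours from a RefSeq table of GRCm38.p6. The number of arrays limits the precision, and detection calls were not used here. Alternatives left out arrays and preparations and changed the unit, block, normalization, offset and filter.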

Additional observations from a re-analysis of the deposited data

Results flagged for a closer look

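Among 105 named probe sets, each read in 2 sets of 4 arrays, 13 of 210 sets had 1 array whose gap to the nearest other exceeded 0.83 of the range of the 4, and chance alone marks about 1 in 20 sets. Array 1 of FVB/NJ was that array in 7 of the 13. It was high for the smooth muscle marker Tagln (5.05, others 4.29 to 4.38). It was low for Irf7 (4.00, others 4.94 to 5.06), Vamp3 (4.34, others 5.40 to 5.57), Ier2 (3.81, others 4.88 to 5.04), Kcnj11 (4.92, others 6.27 to 6.51), Rgs7 (6.20, others 7.81 to 7.97) and Apod (6.59, others 7.25 to 7.38). Array 3 of FVB/NJ was high for H2-Eb1 (5.63, others 5.26 to 5.27) and for the second probe set of Anp32a (9.26, others 9.14 to 9.15), and array 4 was low for Slc6a2 (3.23, others 5.39 to 5.62). In SJL/J, array 2 was low for Grin2d (3.81, others 5.29 to 5.36) and the second probe set of Acaa1b (4.39, others 5.35 to 5.45), and array 1 was low for Gsr (6.41, others 7.16 to 7.27). None of these 13 probe sets was called between the strains, and none of the called probe sets had such an array.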

How the results depend on the processing

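The 25 called probe sets kept their direction in every setting in which they were tested, and 8 kept their call in all of them: those of Acad9, Atp6v1d, Erdr1, Gdpd3, Gm15772, Serpina3n and Srp9, and 94767_at. Acaa1a and Neu1 lost it most often, in 15 of 28 settings each. Counts of calls, with those at 2-fold or more in brackets, were 25 (21) as reported. With the preparation number as a replicate block they were 64 (38), with arrays as units 63 (32), with arrays as units and preparation as a random block 38 (25), and with the title day as a block 102 (39). With the 3 shared days alone they were 14 (13), of which 11 were among the 25. The block together with leaving out array 1 of FVB/NJ, chosen after seeing the data, gave 57 (40), and an offset of 64 on the signal gave 23 (12). The cause of these moves was not tested, beyond the number of values that enter. Leaving out 1 array or preparation gave 12 to 26 (12 to 23). Without preparation 1 or 2 of FVB/NJ the count was 12, and without preparation 1 of SJL/J it was 15; the lone preparation is then assumed to vary like the other strains. The other settings (FVB/NJ arrays regrouped by day, the 2 strains alone, no BALB/cByJ, median centring, quantile normalization, an offset of 16, no filter, a 40% filter and no variance trend) gave 19 to 27 calls, with 19 to 21 at 2-fold. Of 80 named probe sets that were not called, 25 gained a call somewhere and 49 changed sign somewhere without a call. The list of variant alleles had no tested member under the 40% filter and gave no value there. The joint contrast of both strains against the other 6, with 75 calls, gave 195 with the replicate block and 82 without array 1 of FVB/NJ. The strains are 1 pool each, so no setting measures variation between mice.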
